A study of Mus musculus with 2 samples.

Results

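Sst interneuron nuclei were selected on raw counts of unique molecular identifiers (UMIs, each of which marks 1 captured transcript) in 2 single-nucleus RNA libraries of mouse hippocampus. Nuclei needed 500 detected genes or more and no more than 5% of UMIs from mitochondrial genes. Such a nucleus was a member if it held at least 3 UMIs of Gad1 and Gad2 together and at least 2 of Sst. It could hold at most 4 UMIs of Adarb2, 2 of Slc17a7, 4 of Prox1 and C1ql2 together and 1 of Mobp and Mog together. This gave 79 of the 7211 nuclei kept in the Capza2 heterozygote library and 97 of the 6424 kept in the wild-type library, 176 of 13635 in all. The heterozygote library came from hippocampus labelled CAPZA2+/-, a heterozygous knockout, and the wild-type library from wild-type hippocampus prepared under the same protocols. Capza2 encodes an alpha subunit of the capping protein that closes the barbed ends of actin filaments. The labels give neither the part of Capza2 that was removed, nor the age or sex of the mice, nor the number of mice behind a library. Each genotype had 1 library, so every difference between genotypes below is between 2 libraries, has no replicate check and carries no test.

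Somatostatin interneurons arise in the medial ganglionic eminence (MGE) of the embryo, release GABA and the neuropeptide somatostatin, and mostly inhibit the dendrites of pyramidal neurons. In the hippocampus the best known among them are the O-LM cells, whose bodies lie in stratum oriens and whose axons reach stratum lacunosum-moleculare, where they meet the entorhinal input. Others project over long distances, express Nos1 and Chodl, or share Pvalb with basket and bistratified cells. Interneurons from the caudal ganglionic eminence (CGE), many of which express Adarb2, form the other large branch of hippocampal GABAergic cells.

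The gene that defines these nuclei is Sst, and its proximal promoter is shown because the cyclic AMP response element (CRE), through which CREB acts, is best known from it. The RefSeq sequence lies on GRCm38.p6 chr16:23890795-23891094, minus strand, and runs from 250 bases before the annotated start of the gene to 50 bases after it.
Sst: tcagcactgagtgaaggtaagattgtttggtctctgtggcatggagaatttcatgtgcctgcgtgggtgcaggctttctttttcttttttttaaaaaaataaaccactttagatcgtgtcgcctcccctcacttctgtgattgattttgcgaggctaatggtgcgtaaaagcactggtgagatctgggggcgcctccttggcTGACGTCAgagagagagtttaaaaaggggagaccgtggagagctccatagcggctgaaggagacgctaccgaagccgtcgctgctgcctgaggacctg
The capitals mark the 8-base motif TGACGTCA, which reads the same on both strands and begins at base 203 of these 300 bases. It was found in 588 of 32851 RefSeq promoters of the same length (1.79%). It was found in none of the 24 matched promoters among the 30 genes ranked highest below, 15 against each class of other GABAergic nuclei. That says only that these letters are not in those windows, and binding of no factor was measured here.

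The 79 heterozygote members held 951111 UMIs and the 97 wild-type members 1147259. The median member had 10264 UMIs and 3755 genes in the heterozygote library and 11016 UMIs and 3831 genes in the wild-type library. The 2 libraries shared 13 barcodes, and no member's barcode occurred in the other library. Scrublet scored 2 heterozygote and 1 wild-type members among the likely doublets, and these were kept. The labelled tissue gives no cell type beyond mixed neurons and glia, so the name of the nuclei rests on their genes.

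The values that chose the members are given as a description. Gad1, which makes most neuronal GABA, and Gad2, its synaptic partner enzyme, together had a median of 5 UMIs per member in both libraries, with a highest value of 42 in the heterozygote and 21 in the wild type. Sst had a median of 18 UMIs in heterozygote members (range 2 to 200) and 9 in wild-type members (range 2 to 105). Members with 2 to 4 Sst UMIs numbered 12 of 79 in the heterozygote and 30 of 97 in the wild type, so more wild-type members lay near the limit. Just inside it, at 2 UMIs, were 6 heterozygote and 18 wild-type nuclei, and just outside it, at 1 UMI, were 19 heterozygote and 28 wild-type nuclei that met the other limits. For Gad1 and Gad2 together, 18 heterozygote and 13 wild-type nuclei lay at 3 UMIs, and 13 heterozygote and 23 wild-type nuclei that met the other limits lay at 2.

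Sst RNA was also found in nuclei of cells not known to make it. Among oligodendrocyte nuclei (at least 5 UMIs of Mobp and Mog together and none of Gad1, Gad2 or Slc17a7), which had a median of 2336.5 UMIs in the heterozygote and 2294 in the wild type, a UMI of Sst was held by 32.6% in the heterozygote (86 of 264) and 30.1% in the wild type (63 of 209). At least 2 UMIs were found in 19 of 264 heterozygote and 16 of 209 wild-type oligodendrocyte nuclei, and at least 5 in none of either. Among the Adarb2 interneuron nuclei described below, whose median depth was 10233 UMIs in the heterozygote and 10296.5 in the wild type, 9 of 129 heterozygote and 14 of 166 wild-type nuclei held at least 2 Sst UMIs, and 5 heterozygote and 2 wild-type nuclei at least 5. The share of oligodendrocyte nuclei with Sst was alike in both libraries, and members with 2 to 4 UMIs are the ones whose counts come nearest to this background. Differences between genotypes are also given, where they move most, for members with at least 5 Sst UMIs (67 in each library) or without clusters 4 and 6, described below.

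Of the markers that the rule did not use, Nxph1, Sox6 and Satb1 were present in most members, and Lhx6 in a minority. Nxph1, a secreted ligand of neurexins made by MGE interneurons, was detected in 98.7% of heterozygote members (78 of 79) and 96.9% of wild-type members (94 of 97), against 4.55% of heterozygote and 3.35% of wild-type oligodendrocyte nuclei. Sox6, a transcription factor needed for MGE interneurons to mature, was detected in 77.2% of heterozygote and 66.0% of wild-type members, against 3.79% of heterozygote and 4.31% of wild-type oligodendrocyte nuclei. The MGE factor Lhx6 was found in 39.2% of heterozygote and 43.3% of wild-type members, from 39 heterozygote and 58 wild-type UMIs in all. Satb1, an MGE factor of Sst cells, had 338 heterozygote and 318 wild-type UMIs, in 86.1% of heterozygote and 78.4% of wild-type members. With every nucleus thinned to 3000 UMIs, Nxph1 was found in 98.7% of heterozygote and 95.8% of wild-type members, against 7.14% of heterozygote and 4.26% of wild-type oligodendrocyte nuclei. Nuclei with 1 Sst UMI that met the other limits had a mean of 24.6 Nxph1 UMIs in the heterozygote and 29.0 in the wild type. Members with 2 Sst UMIs had 31.0 and 30.8. For Sox6 the means were 4.26 and 5.54 at 1 Sst UMI, and 2.50 and 3.94 at 2. Nxph1 and Sox6 thus did not set members at the Sst limit apart from nuclei just outside it.

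**Figure D1:**
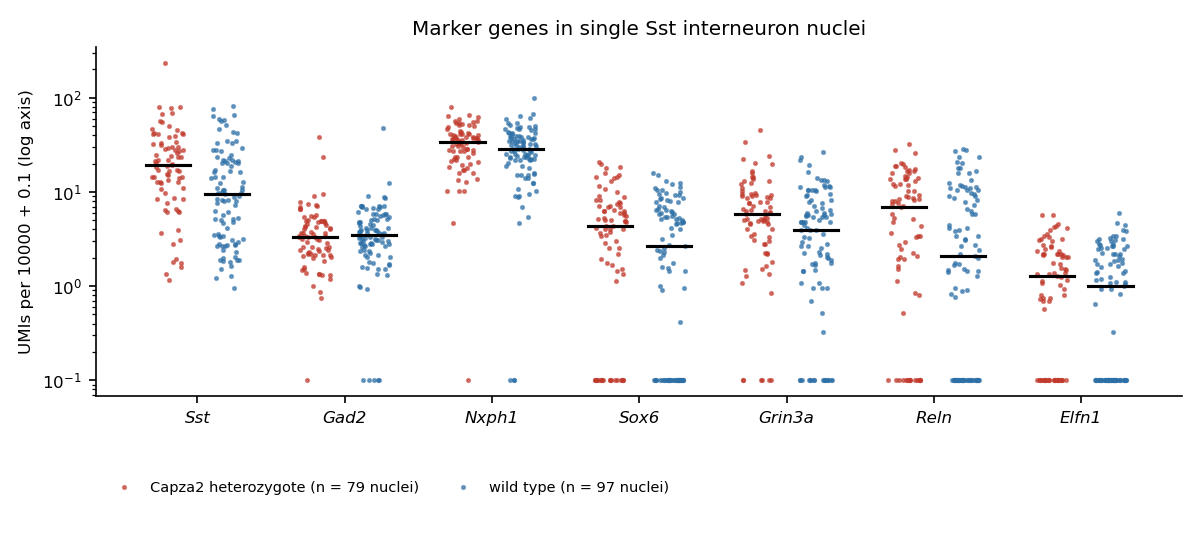
UMIs per 10000 (plus 0.1, log axis) of 7 genes in each Sst interneuron nucleus, with 79 heterozygote nuclei left and 97 wild-type nuclei right for each gene; black bars are medians and points at the bottom of the axis are nuclei with 0 UMIs. Sst and Gad2 took part in the selection; the median of Nxph1 is 33.6 in the heterozygote and 28.2 in the wild type, and that of Reln 6.74 in the heterozygote and 1.97 in the wild type.

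The targeted gene was given first to check the labels. Capza2, ENSMUSG00000015733, spans 17636234 to 17666972 on the plus strand of chromosome 6 (GRCm38). It had 26 UMIs in heterozygote members and 61 in wild-type members. It was detected in 31.6% of heterozygote nuclei (exact binomial 95% interval 21.6 to 43.1) and 44.3% of wild-type nuclei (34.2 to 54.8). Scaled to 1000000 UMIs of these nuclei (CPM), this was 27.3 in the heterozygote and 53.2 in the wild type, a log2 ratio (heterozygote over wild type) of -0.96 with an exact 95% interval of -1.68 to -0.28. The interval covers counting error only, as do all that follow. Without the 36 nuclei of clusters 4 and 6 described below, the log2 ratio was -0.72 (-1.55 to 0.07), and after thinning every nucleus to 3000 UMIs it was -0.35 (-1.96 to 1.15). In the other GABAergic nuclei, those with at most 1 Sst UMI or with at least 5 of Adarb2, it was -0.21 (-0.53 to 0.12), from 136 heterozygote and 194 wild-type UMIs. Capza1, the other widely expressed alpha subunit, had 59 heterozygote and 81 wild-type UMIs and a log2 ratio of -0.19 (-0.70 to 0.32). Capzb, the beta subunit, had 32 heterozygote and 49 wild-type UMIs and a log2 ratio of -0.34 (-1.03 to 0.33), so neither partner was distinguishable from an equal level at this depth. The UMIs are read near the 3′ end of the transcript, and whether the removed part of Capza2 includes that end is not stated in the labels.

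Members made up 1.10% of the heterozygote nuclei kept (79 of 7211, 95% interval 0.868 to 1.36) and 1.51% of the wild-type nuclei kept (97 of 6424, 1.23 to 1.84). The ratio of these shares was 0.726 (exact 95% interval 0.532 to 0.987). The share of all GABAergic nuclei was also lower in the heterozygote library, at 3.97% in the heterozygote against 5.46% in the wild type (ratio 0.726, 0.619 to 0.851). Within the GABAergic nuclei the members of this rule took the same share in both libraries, 27.6% of 286 in the heterozygote and 27.6% of 351 in the wild type (ratio 1.00, 0.733 to 1.36). GABAergic nuclei with low Sst and low Adarb2 had a ratio of 0.790 (0.575 to 1.08) and those with at least 5 Adarb2 UMIs one of 0.692 (0.546 to 0.877) of all nuclei kept. With at least 5 Sst UMIs asked of a member, 67 nuclei remained in each library. The ratio was then 0.891 (0.625 to 1.27) among all nuclei and 1.23 among GABAergic nuclei. The ratio among GABAergic nuclei thus moved with the limit for Sst, but stayed inside the interval of 0.733 to 1.36 given above.

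Set against the other GABAergic nuclei, Sst members carried a set of genes known from dendrite-targeting interneurons. Each gene here was ranked by the smaller of its log2 ratios in the 2 libraries, over genes with at least 50 UMIs in the compared pair. As the classes were cut from the same nuclei by their counts, these ratios describe the classes and are not tests. Against the 78 heterozygote and 88 wild-type GABAergic nuclei with at most 1 UMI of Sst and 4 of Adarb2, 235 of 5557 genes were at least 1.5-fold higher in both libraries (4.23%) and 233 at least 1.5-fold lower in both (4.19%). That class showed higher Pvalb interneuron genes, such as Syt2, a fast calcium sensor of release, which had 7 UMIs in Sst members and 73 in the class in the heterozygote, and 22 in members and 89 in the class in the wild type.

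Elfn1, an adhesion protein that Sst cells use to set the release properties of synapses onto them, stood at 149 CPM in Sst members against 14.0 in the Sst-low class in the heterozygote library. In the wild-type library it stood at 126 against 14.6. No UMI of Elfn1 was found in 264 heterozygote or 209 wild-type oligodendrocyte nuclei, which, at 3 counts, allows shares of up to 1.14% in the heterozygote and 1.44% in the wild type. Grin3a, an NMDA receptor subunit found in Sst cells, was higher by a log2 ratio of 2.95 in the heterozygote and 2.56 in the wild type. Reln, the secreted glycoprotein reelin, was higher by 2.58 in the heterozygote and 2.43 in the wild type. Synpr, a synaptic vesicle protein, was higher by 3.44 in the heterozygote and 2.82 in the wild type. Trhde, which breaks down thyrotropin-releasing hormone, had log2 ratios of 2.79 in the heterozygote and 2.24 in the wild type. Cacna2d3, a calcium channel subunit, had 2.39 in the heterozygote and 2.80 in the wild type, and Igf1, a growth factor, had 3.32 in the heterozygote and 1.85 in the wild type. The members' levels lay above the class's in both libraries for each of these genes, which follows from the ranking by the smaller ratio.

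The 10 lowest against the Sst-low class were led by Frem1 and Fras1, extracellular matrix proteins, and Pde11a, a phosphodiesterase. Fras1 had 9.46 CPM in Sst members against 114 in the class in the heterozygote, and 13.9 against 127 in the wild type. Pde11a had 28.4 against 232 CPM in the heterozygote and 31.4 against 273 in the wild type. Sorcs1, a sorting receptor, stood at log2 ratios of -2.26 in the heterozygote and -2.07 in the wild type. Pvalb itself had 12 heterozygote and 17 wild-type UMIs in members, and Tac1, a tachykinin precursor, had 36 heterozygote and 40 wild-type UMIs, found in 10.1% of heterozygote and 9.28% of wild-type members.

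Against the 129 heterozygote and 166 wild-type Adarb2 nuclei, 306 of 6813 genes were at least 1.5-fold higher in Sst members in both libraries (4.49%) and 419 at least 1.5-fold lower in both (6.15%). Among the 15 highest were Sox6, with log2 ratios of 3.32 in the heterozygote and 3.04 in the wild type, and Satb1, with 2.62 in the heterozygote and 2.61 in the wild type. Crhbp, which binds corticotropin-releasing hormone, had 123 CPM in members against 3.76 in Adarb2 nuclei in the heterozygote, and 85.4 against 5.43 in the wild type. Lypd6, a membrane-anchored modulator of nicotinic receptors, had log2 ratios of 4.96 in the heterozygote and 3.75 in the wild type. Gna14, a G protein alpha subunit, had 81 UMIs in members against 0 in Adarb2 nuclei in the heterozygote, and 58 against 1 in the wild type. Il1rapl2, a synaptic adhesion protein, had 1290 against 103 CPM in the heterozygote and 988 against 139 in the wild type.

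The lowest against Adarb2 nuclei were Vip, the neuropeptide of a CGE class, with 4.21 CPM in members against 264 in Adarb2 nuclei in the heterozygote and 2.61 against 194 in the wild type. Kit, a receptor kinase, had log2 ratios of -4.55 in the heterozygote and -4.25 in the wild type. Cadps2, which primes dense-core vesicles, had -4.82 in the heterozygote and -4.37 in the wild type, and Ntng1, netrin G1, had -3.32 in the heterozygote and -3.79 in the wild type. Sox6 set the members apart from the Adarb2 class in both libraries, but from the Sst-low class by 1.09 in the heterozygote and by -0.22 in the wild type.

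**Figure D2:**
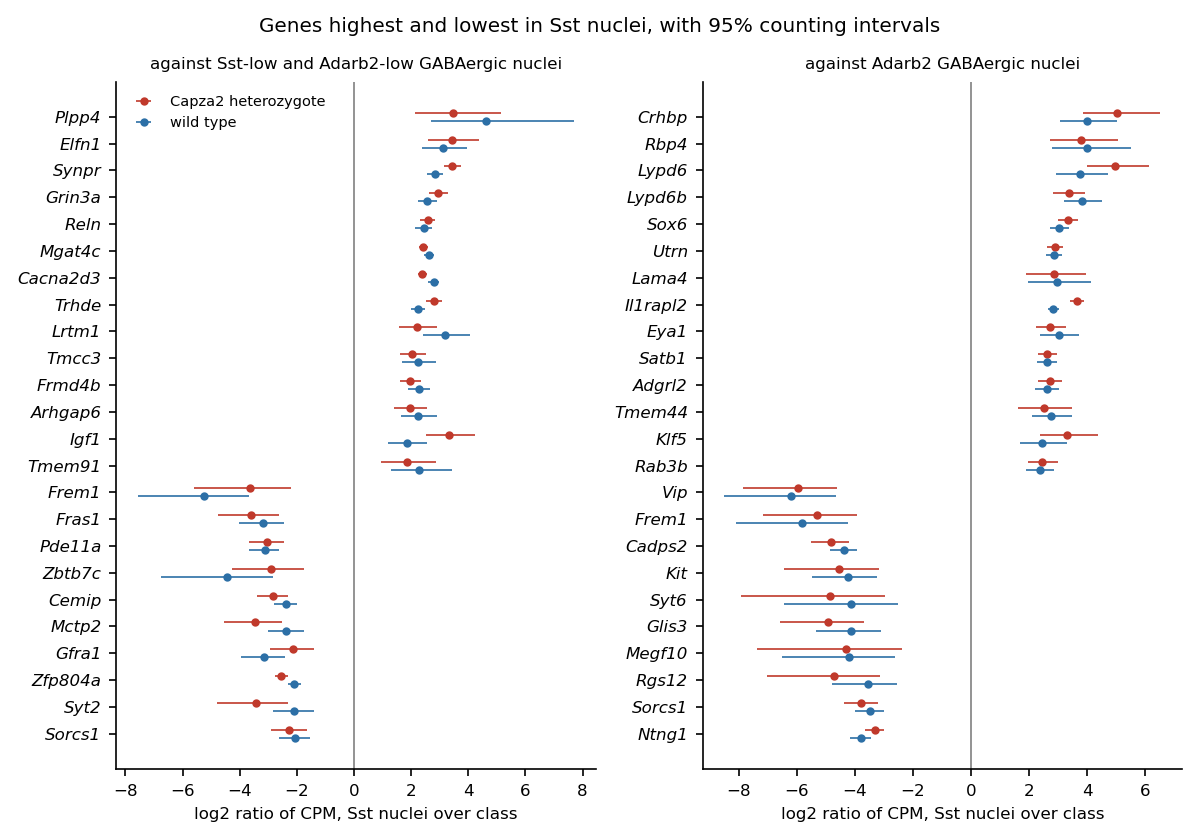
Log2 ratio of CPM in Sst nuclei over GABAergic nuclei with low Sst and low Adarb2 (left panel) and over Adarb2 GABAergic nuclei (right panel), for those of the 15 highest and 10 lowest genes of each that are reported here; heterozygote points lie above wild-type points and bars are exact 95% counting intervals. Gna14 is left out because it had 0 UMIs in the heterozygote Adarb2 class. Each gene shown lies on the same side of 0 in both libraries, which follows from the ranking.

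Gene lists placed these contrasts by function. Of the list of Sst subtype genes, 6 of 14 members measured against the Sst-low class were at least 1.5-fold higher in both libraries and 2 lower, beside 4.23% and 4.19% of all genes. Among glutamate receptors 8 of 21 were higher and 0 lower, with Grik3, a kainate receptor subunit, at log2 ratios of 1.65 in the heterozygote and 1.58 in the wild type. The metabotropic receptor Grm7 stood at 1.46 in the heterozygote and 1.12 in the wild type. Among GABA receptors 0 of 13 were higher and 5 lower, among them Gabrg3 (-1.88 in the heterozygote and -1.29 in the wild type) and Gabrb2 (-0.77 in the heterozygote and -0.72 in the wild type). Of the ion channels 5 of 43 were higher and 10 lower. The low ones included Kcnc1, a subunit of the fast Kv3 potassium channels of Pvalb cells (-0.68 in the heterozygote and -0.88 in the wild type). The high ones included Cacna1g, a T-type calcium channel (1.81 in the heterozygote and 1.41 in the wild type), and Kcnd3, a Kv4 A-type potassium channel (1.44 in the heterozygote and 0.86 in the wild type). Of the CGE genes 9 of 11 were lower and 0 higher than in Adarb2 nuclei, beside 6.15% and 4.49% of all genes. That class was cut by Adarb2 itself, and the CGE list includes Adarb2 and Prox1, both genes of the selection. The lower level of Adarb2 was thus fixed by the rule, and this count is a description.

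Genes of the rarer Sst subtypes were scarce. Chodl had 0 UMIs in both libraries, which, at 3 counts, allows shares of up to 3.80% of heterozygote and 3.09% of wild-type members. Nos1 had 7 heterozygote and 18 wild-type UMIs, and Chrna2, a nicotinic subunit used to mark O-LM cells in mouse, had 2 heterozygote and 1 wild-type UMIs. Long-range Nos1 and Chodl cells were thus not identifiable in these nuclei, and Chrna2 was too low to divide them.

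Clustering the 176 members gave 7 clusters, in which genes of the selection were not used. Their leading genes define them and are a description. No cluster was named, since none was led by at least 3 of the subtype markers. Cluster 0 (17 heterozygote and 15 wild-type nuclei) was led by Zfp804b, Pld5, Dpp10, Calb1 and Csgalnact1. Cluster 1 (7 heterozygote and 24 wild-type) was led by Syndig1, Kirrel3, Wls, Cntn6 and Spon1. Cluster 2 (17 heterozygote and 12 wild-type) was led by Cdh7, Pcdh11x, Unc13c, Mcc and Tox, and cluster 3 (16 heterozygote and 11 wild-type) by Adamtsl1, Col25a1, Stk32a, Brinp3 and Tll1. Cluster 4 (6 heterozygote and 19 wild-type) was led by Apoe, Slc1a2, Fgf13, Gpc5 and Nek7, and cluster 5 (10 heterozygote and 11 wild-type) by Plpp4, Eya1, Rgs6, Unc13c and Chrna7. Cluster 6 (6 heterozygote and 5 wild-type) was led by Tafa1, Arpp21, Hs3st4, Tshz2 and Ryr3. Some leading genes rested on few nuclei. Unc13c was found in 5 nuclei of cluster 2, 1 of which held 72.3% of its UMIs there. In the wild type it stood at 18.7 CPM in that cluster against 34.6 in the other members. Tshz2 was found in 3 nuclei of cluster 6, 1 of which held 49.1%.

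The clusters differed in genes of known Sst cells. Grin3a ranged between 151 CPM in cluster 6 and 1245 in cluster 5. Npy, the neuropeptide of several Sst subtypes, reached 500 CPM in cluster 1 and 45.1 in cluster 5. Erbb4, the neuregulin receptor that most Pvalb and CGE cells express, stood at 11412 CPM in cluster 4 against 160 in cluster 5. In cluster 4 the median of Sst was 12.5 UMIs in heterozygote and 2 in wild-type nuclei, and in cluster 6 it was 3.5 in heterozygote and 4 in wild-type nuclei. In the other 5 clusters it lay between 10 and 36.5 in the heterozygote and between 4 and 19 in the wild type. Cluster 4 also held most astrocyte UMIs, 101 of the 132 that members held over 5 astrocyte genes in the heterozygote and 71 of 122 in the wild type. In cluster 6 the list of 8 excitatory genes had 14.7 UMIs per nucleus in the heterozygote and 25.4 in the wild type, against 4.97 over all heterozygote members and 5.34 over all wild-type members. Clusters 4 and 6 thus include nuclei with genes of other cells, and hold 12 heterozygote and 24 wild-type members. Since the leading genes include some that differ between the libraries, the sizes of the clusters are not read as a difference between genotypes.

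Between the genotypes, most genes of Sst nuclei lay close together. Summed over the members of both libraries, 3609 genes had 100 UMIs or more. Of these, 97 were at least 1.5-fold higher in heterozygote members (2.69%) and 102 at least 1.5-fold lower (2.83%), with a median log2 ratio of -0.01. No count of changed genes can be had from 1 library a genotype. The 12 highest and 12 lowest genes were named by the interval bound nearest to 0, among genes detected in at least 10% of members of a library.

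Lypd6, Cdh13 and Pcdh11x were among the 12 highest genes in heterozygote Sst nuclei. Lypd6 had 167 UMIs in heterozygote members and 99 in wild-type members, in 67.1% of heterozygote and 42.3% of wild-type nuclei, and a log2 ratio of 1.02 (0.66 to 1.40). In other GABAergic nuclei its ratio was -0.45 (-1.17 to 0.24). In oligodendrocyte nuclei 11.7% held a UMI of it in the heterozygote and 15.8% in the wild type. Lypd6 was higher in the heterozygote within each of the 7 clusters, but its interval lay off 0 only in cluster 0 (0.63 to 2.44). Counts of clusters, here and below, give signs only, and many of the cluster intervals included 0. Cdh13, a cadherin held in the membrane by a lipid anchor, had 1146 heterozygote and 773 wild-type UMIs (log2 ratio 0.84, 0.71 to 0.97), and was higher in 5 of 7 clusters. Pcdh11x, a protocadherin, had 310 heterozygote and 160 wild-type UMIs (1.22, 0.94 to 1.51). It was higher in 6 of 7 clusters, with log2 ratios of 2.58 in cluster 3, 1.57 in cluster 4 and 3.73 in cluster 6, while in cluster 2, which it leads, it stood at 0.08.

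Other high genes differed in how they were spread over nuclei and clusters. Zfp804b, a zinc finger protein, had 933 heterozygote and 613 wild-type UMIs (0.88, 0.73 to 1.03), but it was higher only in cluster 0, at 4219 CPM in the heterozygote against 1165 in the wild type, and lower in the other 6 clusters. Gpc5, a glypican of the cell surface, had 329 heterozygote and 123 wild-type UMIs (log2 ratio 1.69), found in 20 heterozygote and 19 wild-type nuclei. A single nucleus held 18.8% of its UMIs in the heterozygote and 35.0% in the wild type, and without the nuclei that Scrublet marked its log2 ratio was 1.07. Unc13c, a priming factor of synaptic vesicles, had 98 heterozygote and 38 wild-type UMIs (1.64, 1.08 to 2.22), of which 1 nucleus held 48.0% in the heterozygote. Tafa1, a secreted protein, had 127 heterozygote and 66 wild-type UMIs, in 17 heterozygote and 12 wild-type nuclei, and a single nucleus held 70.9% of them in the heterozygote and 71.2% in the wild type. Its log2 ratio of 1.21 (0.77 to 1.67) turned to -1.57 (-2.35 to -0.83) in members with at least 5 Sst UMIs. Pld5 had 211 heterozygote and 129 wild-type UMIs (0.98, 0.66 to 1.31), in 32 heterozygote and 30 wild-type nuclei, and was higher in 4 of 7 clusters. Luzp2 had 206 heterozygote and 112 wild-type UMIs (1.15, 0.81 to 1.49), in 33 heterozygote and 30 wild-type nuclei, and was higher in 6 of 7 clusters. Without the marked nuclei its log2 ratio was 0.60, and other GABAergic nuclei showed -0.32 (-0.44 to -0.19).

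Apoe and Ttr are genes of other cells. Apoe, the lipid carrier made by astrocytes, had 204 heterozygote and 111 wild-type UMIs (log2 ratio 1.15), of which a single nucleus held 51.5% in the heterozygote and 27.9% in the wild type. Without clusters 4 and 6 its log2 ratio was 0.20, and without the richest nucleus of each library 0.59. The 5 astrocyte markers summed to 132 heterozygote and 122 wild-type UMIs in members (0 to 42 per nucleus in the heterozygote), with none at 0. Ttr, made by the choroid plexus, had 114 heterozygote and 48 wild-type UMIs (1.52, 1.02 to 2.04) in 69.6% of heterozygote and 38.1% of wild-type members. Of oligodendrocyte nuclei 73.5% held it in the heterozygote and 32.1% in the wild type, and other GABAergic nuclei had a log2 ratio of 1.88 (1.56 to 2.22). The share of members with Ttr was below that of oligodendrocyte nuclei in the heterozygote and above it in the wild type, and is not read as expression. The 5 choroid plexus genes summed to 157 heterozygote and 88 wild-type UMIs, with Folr1 and Kcne2 at 0 in wild-type members. The 7 oligodendrocyte genes summed to 114 heterozygote and 92 wild-type UMIs (log2 ratio 0.58, 0.17 to 0.99), the 3 genes of oligodendrocyte precursors to 41 heterozygote and 18 wild-type UMIs (1.46, 0.63 to 2.35), and the 4 hemoglobin genes to 13 heterozygote and 3 wild-type UMIs (2.39, 0.52 to 4.84). What part these genes play in other results was not tested.

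Sst itself had 2314 UMIs in heterozygote members and 1652 in wild-type members (log2 ratio 0.76, 0.66 to 0.85). As it chose the members, this is a description. The level was higher in the heterozygote in 7 of 7 clusters, from 0.02 in cluster 0 to 2.17 in cluster 4. With at least 5 Sst UMIs per member it was 0.56, and without clusters 4 and 6 it was 0.52.

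Kirrel3 and Erbb4 had the most UMIs among the 12 lowest genes in heterozygote Sst nuclei. Kirrel3, an immunoglobulin-family adhesion protein of synapses, had 671 UMIs in heterozygote and 1710 in wild-type members (log2 ratio -1.08, -1.21 to -0.95), against 0.07 (-0.02 to 0.15) in other GABAergic nuclei. Of the wild-type UMIs 1192 came from cluster 1, which held 7 heterozygote and 24 wild-type nuclei. Within that cluster Kirrel3 stood at 2630 CPM in the heterozygote and 4063 in the wild type. It was lower in 4 clusters and higher in 3, and with the 7 clusters weighted alike the log2 ratio was -0.40.

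Erbb4 had 1928 heterozygote and 4313 wild-type UMIs (-0.89, -0.97 to -0.81). Cluster 4 alone gave 427 heterozygote and 2862 wild-type UMIs. Without clusters 4 and 6 the counts were 1182 in the heterozygote and 1187 in the wild type and the log2 ratio 0.06 (-0.06 to 0.18). By cluster, Erbb4 was lower in 6 of 7, among them cluster 3 at -0.71 (-0.90 to -0.51) and cluster 2 at -0.30 (-0.50 to -0.10), and higher in cluster 6 at 0.54 (0.31 to 0.79). With the 7 clusters weighted alike its log2 ratio was -0.67. Cntnap4, a contactin-associated protein of interneuron synapses, had 315 heterozygote and 676 wild-type UMIs, a log2 ratio of -0.83 and one of -0.30 without those clusters. Ntrk3, the receptor of neurotrophin-3, had 287 heterozygote and 589 wild-type UMIs, -0.77 over all members and -0.44 without them. Zfp536, a zinc finger protein, had 305 heterozygote and 615 wild-type UMIs, -0.74 over all members and -0.40 without them.

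Ppm1l, Dgkb and Cdh18 had about the same ratio without clusters 4 and 6. Ppm1l, a protein phosphatase, had 80 heterozygote and 219 wild-type UMIs (-1.18, -1.57 to -0.81), a value of -1.18 without those clusters, and was lower in 6 of 7. Dgkb, a diacylglycerol kinase, had 282 heterozygote and 671 wild-type UMIs (-0.98, -1.19 to -0.78), with -0.98 without them, while other GABAergic nuclei showed 0.31 (0.23 to 0.40). With clusters weighted alike the ratio of Dgkb was -0.58. Cdh18, a cadherin, had 172 heterozygote and 361 wild-type UMIs (-0.80, -1.07 to -0.53), with -0.84 without them and -0.49 with clusters weighted alike. Slc2a13, a transporter of myo-inositol, had 229 heterozygote and 500 wild-type UMIs (-0.86, -1.09 to -0.63) and was lower in 7 of 7 clusters, by between 0.11 and 0.80. Its interval lay off 0 only in cluster 4 (-1.30 to -0.33). Without clusters 4 and 6 its log2 ratio was -0.46, and with clusters weighted alike -0.52. Ryr3, a calcium release channel, had 84 heterozygote and 202 wild-type UMIs (an interval of -1.38 to -0.62 on the log2 scale), whereas other GABAergic nuclei showed 0.37 (0.23 to 0.52). Without clusters 4 and 6 its log2 ratio was -1.93, from few UMIs, as 69 of its heterozygote and 146 of its wild-type UMIs lay in cluster 6. Igsf11, a synaptic adhesion protein (-1.19, -1.78 to -0.63), and Wls, which carries Wnt proteins to the surface (-1.22, -1.91 to -0.57), had only 36 (Igsf11) and 27 (Wls) heterozygote UMIs. With clusters weighted alike the log2 ratio was -0.44 for Igsf11 and -0.36 for Wls, which was higher in 4 clusters and lower in 2. It was -1.67 for Igsf11 and -0.90 for Wls outside clusters 4 and 6.

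Of these 24 genes, 23 had the same sign without clusters 4 and 6, Erbb4 being the exception, and 16 were still past 1.5-fold. With the 7 clusters weighted alike 24 of 24 had the same sign and 18 were past 1.5-fold, the other 6 being Kirrel3, Dgkb, Slc2a13, Igsf11, Wls and Cdh18. With the nucleus richest in the gene left out of each library, 24 of 24 had the same sign and were past 1.5-fold. With at least 5 Sst UMIs per member 23 had the same sign, Tafa1 being the exception. Of these, 20 were past 1.5-fold, and Sst, Erbb4 and Zfp536 were not. In other GABAergic nuclei 11 of the 24 had an interval on the same side of 0, of which 3 were past 1.5-fold, and 3 had one on the opposite side, namely Luzp2, Dgkb and Ryr3. Whether Sst nuclei differ from other GABAergic nuclei in these ratios was not tested.

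**Figure D3:**
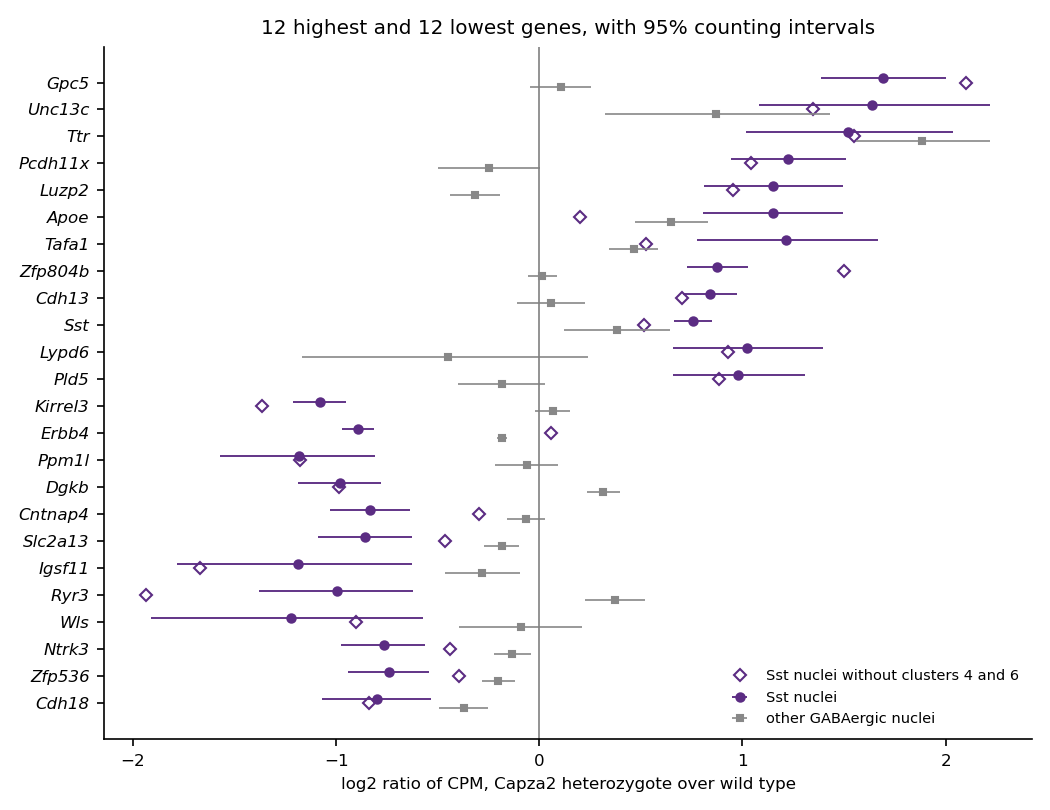
Heterozygote over wild-type CPM as a log2 ratio for the 12 highest and 12 lowest genes in Sst nuclei (filled circles), in Sst nuclei without clusters 4 and 6 (open diamonds) and in other GABAergic nuclei (grey squares), with exact 95% counting intervals as bars for circles and squares. Erbb4 is at -0.89 in all Sst nuclei and at 0.06 without clusters 4 and 6.

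**Figure D4:**
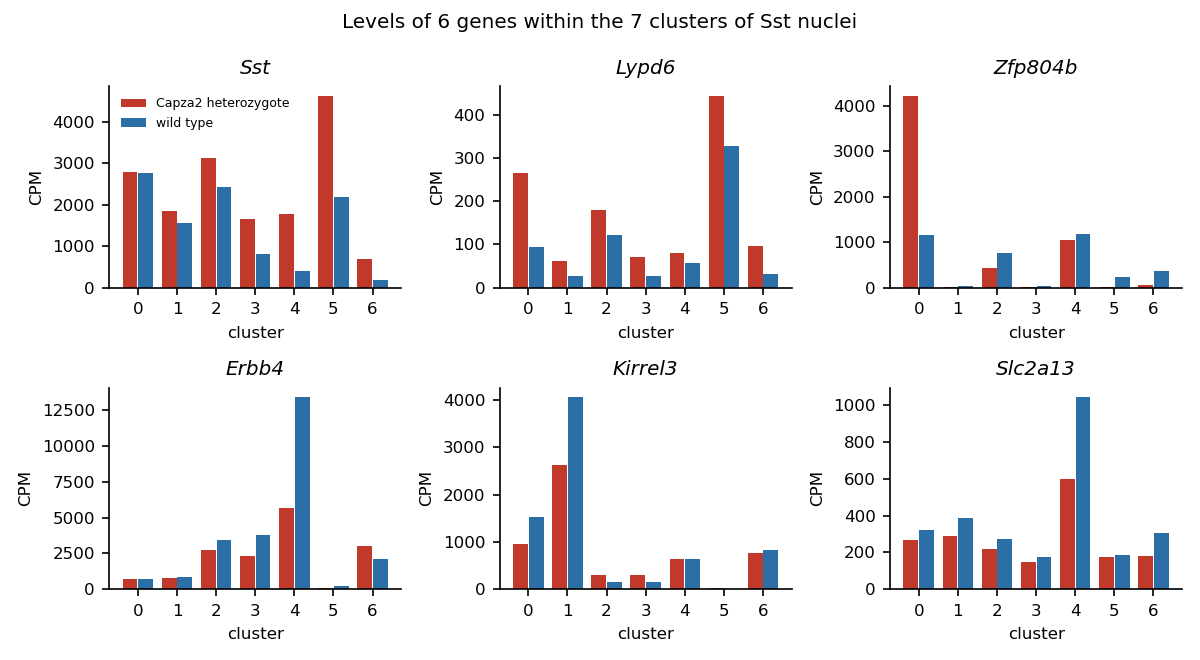
CPM of 6 genes in the 7 clusters of Sst nuclei, with the heterozygote bar left of the wild-type bar in each cluster; bars are sums over nuclei, without replicates. Sst and Lypd6 are higher in the heterozygote in each cluster and Slc2a13 lower. The counting interval of the ratio lies off 0 only in cluster 0 for Lypd6 and only in cluster 4 for Slc2a13. Zfp804b is higher only in cluster 0, and the wild-type level of Erbb4 in cluster 4 is 13419 CPM against 5698 in the heterozygote.

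Across functional lists, most genes with at least 100 UMIs lay within 1.5-fold between the genotypes, but not every list was centred on 0. Above and below 0 were 8 and 2 Sst subtype genes, 7 and 1 neuromodulator receptors and 9 and 4 neuropeptide genes. Over all 3609 genes, 1739 were above and 1870 below. For each list the count past 1.5-fold is read against 2.69% higher and 2.83% lower of all genes tested, and the median against -0.01. Without clusters 4 and 6, the same 3609 genes included 113 at least 1.5-fold higher and 125 at least 1.5-fold lower. Among lists with at least 3 such genes, the largest median was that of the Sst subtype genes, 0.46 over the 10 of 24 members with enough UMIs, of which 2 were at least 1.5-fold higher and 1 lower. The median was 0.21 without clusters 4 and 6, and 0 were then higher and 1, Npy, lower. Calb1, a calcium buffer of Sst cells, had 85 heterozygote and 67 wild-type UMIs (log2 ratio 0.61, 0.13 to 1.10), and Ntng1 had 88 heterozygote and 68 wild-type UMIs (0.64, 0.17 to 1.12). Calb1 stood at 0.45 (-0.05 to 0.94) and Ntng1 at 0.15 (-0.43 to 0.73) without those clusters. Reln had 820 heterozygote and 674 wild-type UMIs (0.55, 0.40 to 0.70), and Grin3a 704 heterozygote and 587 wild-type UMIs (0.53, 0.37 to 0.69). Npy had 213 heterozygote and 308 wild-type UMIs (-0.26, -0.52 to -0.00), and a log2 ratio of -0.70 (-1.01 to -0.41) without those clusters. Within clusters, Reln was higher in 5 of 7 and Grin3a in 4.

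Among MGE transcription factors the median was 0.19 over 7 of 14 members. Npas3 had 2019 heterozygote and 1753 wild-type UMIs (0.47, 0.38 to 0.57), Sox6 505 heterozygote and 456 wild-type UMIs (0.42, 0.23 to 0.60) and Satb1 338 heterozygote and 318 wild-type UMIs (0.36, 0.13 to 0.58). Dlx6os1, the noncoding RNA of the Dlx5 and Dlx6 locus, had 152 heterozygote and 280 wild-type UMIs (-0.61, -0.91 to -0.32) and was the only member past 1.5-fold, with -0.56 without clusters 4 and 6. The counting is not stated to use strand, and Dlx6os1 overlaps Dlx6, so their reads may be mixed.

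Among neuropeptides and the proteins that process and store them, 3 of 13 with enough UMIs were at least 1.5-fold higher and 0 lower, with a median of 0.22. One of the 3 was Sst. Chga, a granin of dense-core vesicles, had 106 heterozygote and 76 wild-type UMIs (0.75, 0.31 to 1.20), and Pcsk1n, an inhibitor of the convertase PC1, had 201 heterozygote and 144 wild-type UMIs (0.75, 0.44 to 1.07). Pcsk2, a convertase that cuts prosomatostatin, had 136 heterozygote and 243 wild-type UMIs (-0.57, -0.88 to -0.26) and Vgf 72 heterozygote and 120 wild-type UMIs (-0.47, -0.91 to -0.03). Leaving out clusters 4 and 6, 2 of the 13 were higher (Chga and Pcsk1n) and 2 lower (Npy and Pcsk2). Cort, the close relative of somatostatin, had 14 heterozygote and 11 wild-type UMIs.

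Receptors for neuromodulators had a median of 0.26 over 8 of 28 members. Chrna7, a nicotinic receptor subunit, had 227 heterozygote and 155 wild-type UMIs (0.82, 0.52 to 1.13) and was the 1 member past 1.5-fold. Its log2 ratio was 0.52 (0.19 to 0.86) without clusters 4 and 6, where Chrm2, a muscarinic receptor, was the 1 member past 1.5-fold, and higher. Chrm3, another muscarinic receptor, had 1260 heterozygote and 1072 wild-type UMIs (0.50, 0.38 to 0.62). Glutamate receptors had a median of 0.01, with 0 of 20 past 1.5-fold in either direction. The widest apart were Grin3a, given above, and Gria1, an AMPA receptor subunit, with 2380 heterozygote and 4161 wild-type UMIs (-0.54, -0.61 to -0.46). Gria1 stood at -0.60 (-0.68 to -0.52) without clusters 4 and 6, where 2 of 20 were lower past 1.5-fold. GABA receptors had a median of 0.00 and 0 of 11 past 1.5-fold; the widest apart was Gabrg3, with 720 heterozygote and 1229 wild-type UMIs (-0.50, -0.64 to -0.37), which became -0.16 (-0.34 to 0.02) without those clusters.

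Of the genes that make, move and break down GABA, 1 of 8 was past 1.5-fold, with and without clusters 4 and 6. This was Slc38a2, an amino acid transporter, with 48 heterozygote and 102 wild-type UMIs (-0.82, -1.34 to -0.31). Slc32a1, the vesicular GABA transporter, had 94 heterozygote and 80 wild-type UMIs (0.50, 0.06 to 0.95). For the release machinery the median was 0.06 over 27 genes, with Unc13c the only 1 past 1.5-fold, and 2 (Unc13c and Rab3a) without clusters 4 and 6. For ion channels it was -0.02 over 38 genes, with 1 past 1.5-fold, Cacna2d1, at 71 heterozygote and 143 wild-type UMIs (-0.74, -1.17 to -0.32). Cacna2d1 had 20 heterozygote and 6 wild-type UMIs outside clusters 4 and 6 and turned to 1.80 (0.43 to 3.41) there, and 2 channels were then higher and 0 lower past 1.5-fold. Dpp10, an auxiliary subunit of Kv4 channels, had 3985 heterozygote and 3309 wild-type UMIs (0.54, 0.47 to 0.61). For synaptic adhesion proteins the median was 0.08 over 29 genes, 1 higher and 2 lower past 1.5-fold. Nrg1, a ligand of Erbb4, was the higher, with 279 heterozygote and 220 wild-type UMIs (0.61, 0.35 to 0.87), and Erbb4 and Cntnap4 the lower. None of these 3 was past 1.5-fold without clusters 4 and 6 (0.55 for Nrg1), where Il1rapl2 (0.68) and Cntn4 (0.60) were higher and 0 of the 29 lower.

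In the lists nearest to Capza2, 0 of 8 actin capping genes and 0 of 11 genes of the Arp2/3 and WAVE complexes, which build branched actin, were past 1.5-fold. The median was -0.01 for the capping genes and 0.20 for the complexes. Carmil1, which binds and uncaps capping protein, had 133 heterozygote and 208 wild-type UMIs (-0.37, -0.70 to -0.05). Wasf1, a WAVE subunit of neurons, had 102 heterozygote and 88 wild-type UMIs (0.48, 0.06 to 0.91).

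**Figure D5:**
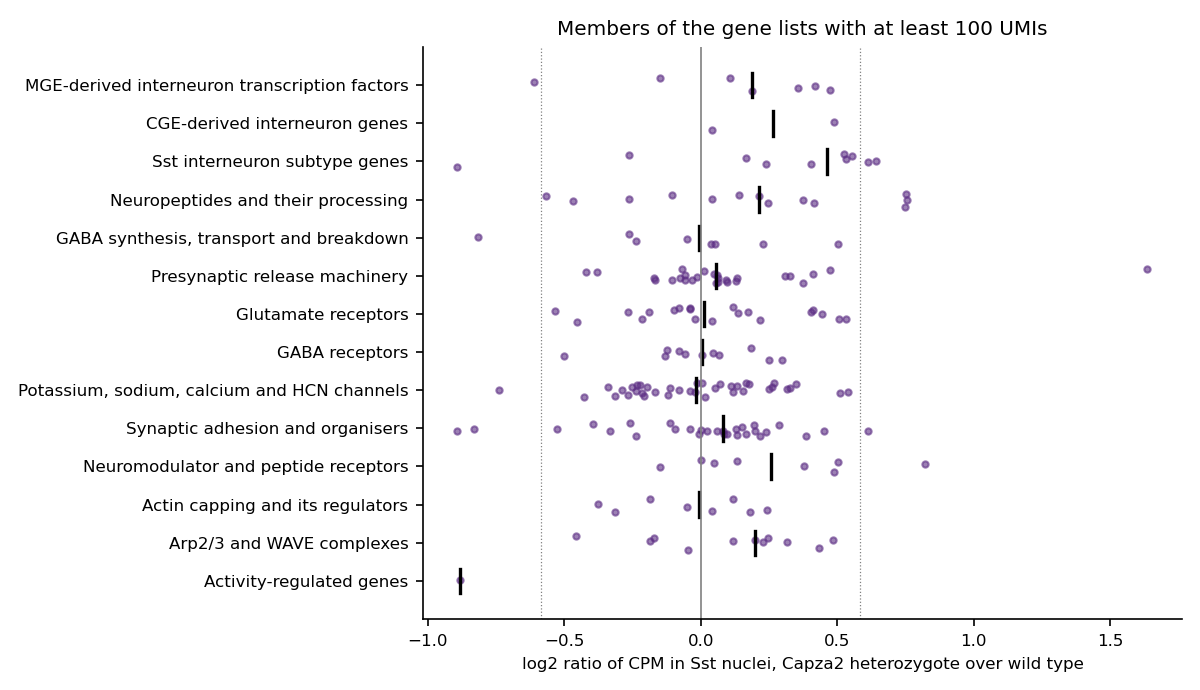
Heterozygote over wild-type CPM in Sst nuclei as a log2 ratio for each gene with at least 100 UMIs in the 14 gene lists; points are genes, black bars list medians, and dotted lines 1.5-fold. Medians lie between -0.02 and 0.46 for the lists with at least 3 such genes, and the activity-regulated list rests on Homer1 alone.

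Activity-regulated genes had few UMIs, and 16 of the 17 were lower in heterozygote members in CPM, beside 51.8% of the 3609 genes with at least 100 UMIs (1870). Most of the 17 lay below that minimum, so the 51.8% is not a like-for-like background. The share among genes with as few UMIs was not computed. Of the 17, 10 had under 30 UMIs over both libraries. The list summed to 204 UMIs (214 CPM) in the heterozygote and 509 UMIs (444 CPM) in the wild type. Only Homer1, a scaffold of the postsynaptic density with an activity-induced short form, passed the UMI minimum, with 80 heterozygote and 178 wild-type UMIs and a log2 ratio of -0.88 (-1.28 to -0.49). Without clusters 4 and 6 it was -0.97, and in other GABAergic nuclei -0.18 (-0.40 to 0.05). The following were picked after their values were seen. Fos, an immediate early transcription factor, had 18 heterozygote and 51 wild-type UMIs (-1.23, -2.09 to -0.43), and Nr4a3, an orphan nuclear receptor, had 5 heterozygote and 34 wild-type UMIs (-2.50, -4.21 to -1.13). In other GABAergic nuclei the log2 ratios were -1.51 (-2.29 to -0.80) for Fos and -1.76 (-2.55 to -1.05) for Nr4a3, so these genes were lower in both sets of nuclei. Jun had 18 UMIs in each library.

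Mitochondrially encoded transcripts, which are not made in the nucleus, summed to 868 UMIs in heterozygote and 1331 in wild-type members, or 913 CPM in the heterozygote and 1160 CPM in the wild type (log2 ratio -0.35, -0.47 to -0.22). A single heterozygote nucleus of cluster 1 held 361 of them, and the next highest held 23. Without the richest nucleus of each library the values were 547 CPM in the heterozygote and 1117 CPM in the wild type, and the log2 ratio was -1.03 (-1.18 to -0.88). The median member had 5 mitochondrial UMIs in the heterozygote and 9 in the wild type. What part this difference between the libraries has in the other ratios was not tested.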

How the data were processed

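Nuclear RNA of hippocampus was measured in 2 libraries, 1 for each genotype. Per the labels' protocols, nuclei were released with a Dounce homogenizer, cleaned on a density gradient and made into 10x Genomics 3′ libraries. The authors deposited UMI counts that are whole numbers and not normalized, 1 matrix for each library, and the submitters' processing notes name Cell Ranger 7.1.0 and mm10. The files listed 32285 genes, of which 32235 were found in GENCODE M21 (GRCm38). The calculations used Python 3.11.15, scanpy 1.11.5, leidenalg 0.10.2 and scipy 1.17.1.

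The members, gene lists and comparisons were chosen with earlier results of these data known. UMIs were summed per library and class and scaled to the class total. Shares have exact binomial (Clopper-Pearson) intervals and ratios exact conditional binomial ones, at 95%, which cover counting error only. The intervals for genes also leave out the spread between nuclei. The calculation of ratios was tested on simulated counts. Cells are not replicates, so no test between genotypes was made. Genes were named as the 12 highest and 12 lowest between genotypes by the bound nearest to 0, the 15 highest and 10 lowest against each comparison class, 5 leading genes per cluster, and up to 2 of each kind (most abundant, highest, lowest) per list; some genes so picked are not reported here, and some list members outside the rule, chosen after their values were seen, are named for their role. Mitochondrial, Xist, Tsix and Y-linked genes and gene models were left out of the rankings.

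Clusters (Leiden, resolution 0.6, 1000 variable genes, 20 principal components, 15 neighbours) were made on both libraries together, without the genes of the selection, Capza2, Ttr, and without Xist, Tsix, genes on the Y chromosome, mitochondrial genes and those of ribosomal proteins. A first run that left out only 4 Y-linked genes gave 5 clusters, in which clusters 0 and 5 and clusters 4 and 6 were each joined. The 7 clusters are those of the stated design, and were chosen for that reason after the first run had been seen. Doublets were scored with Scrublet in scanpy at an expected 0.8% per 1000 barcodes. Its automatic threshold marked 0.0139% of heterozygote and 8.05% of wild-type nuclei, so nuclei were marked instead by rank of the score until the expected rate was reached, and were removed only as an alternative.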

Additional observations from a re-analysis of the deposited data

How the results depend on the processing

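The share of Sst nuclei among all nuclei kept had heterozygote over wild-type ratios between 0.648 and 0.891 over 8 alternatives, each below 1. The share among GABAergic nuclei had ratios between 0.939 and 1.23, the highest with at least 5 Sst UMIs per member. Capza2 kept its direction under 9 alternatives, with log2 ratios between -1.16 and -0.35. The count of genes at least 1.5-fold higher and lower was 97 and 102 at a minimum of 100 UMIs, 28 and 25 at 300, 543 and 620 at 30, and 40 and 32 after thinning each nucleus to 3000 UMIs; the number of genes that reach the minimum changes with these settings. Other alternatives gave counts within 1.5 times. Mitochondrial UMIs moved between the settings, from -0.35 to -0.61 with every nucleus weighted alike, -0.80 after thinning, -1.03 without the richest nucleus of each library and 0.031 with the 7 clusters weighted alike, where the 1 heterozygote nucleus with 361 such UMIs lies in a cluster with 7 heterozygote nuclei; other causes were not tested. Of 216 values of named genes, 162 stayed inside their counting interval, 52 moved outside it and 2 changed sign: Tafa1, at -1.57 with at least 5 Sst UMIs per member, and Erbb4, at 0.060 without clusters 4 and 6. The settings differed widely in this. All 24 genes stayed after scaling by the median ratio or with at least 1000 genes per nucleus. Only 11 stayed with at least 5 Sst UMIs per member, 11 without clusters 4 and 6 and 12 with clusters weighted alike. A list median was taken to stay if it shifted by no more than the median half-width of its genes' counting intervals. By that margin, which is wide for a median over many genes, 91 of 93 list medians stayed and 2 moved. Leaving out clusters 4 and 6, weighting clusters alike, leaving out the richest nucleus and the cluster run with fewer Y-linked genes left out were chosen after seeing the data. No paired analysis was possible because each genotype had 1 library. With 79 heterozygote and 97 wild-type nuclei, genes under 100 UMIs such as Capza2 and most activity-regulated genes have wide intervals.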
